A study of Homo sapiens with 2 samples.

Results

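The genes described here encode the proteins that license replication origins, unwind DNA at the fork, copy it and package the new strands. They are 49 genes of 19775 that the arrays measured, chosen by name for this role when earlier results of these data were known, and each is represented by the probe set with the highest mean of both signals. HEK293T cells derive from human embryonic kidney and express the SV40 large T antigen, a protein known to bind the RB proteins that restrain E2F transcription factors. The cells received pcDNA3.1-GFP (GFP control) or pcDNA3.1-IRX1::GFP, a plasmid for the homeobox protein IRX1 joined to GFP, by polyethylenimine transfection. Both conditions thus had a transient plasmid, the GFP moiety and a sort for GFP-positive cells in common, and RNA was taken after 48 h. Of each condition 1 HG-U133 Plus 2.0 array was analysed, so that no replicate spread and no p-value can be given. The values are MAS5 signals (linear intensity), and ratios are IRX1::GFP over GFP control on the log2 scale.

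In late mitosis and G1 the origin recognition complex, with CDC6 and CDT1, loads the MCM ring onto DNA. In S phase the kinase CDC7, together with CDC45 and GINS, turns the loaded ring into the active helicase. Primase, the polymerases, the sliding clamp PCNA and its loader RFC then copy the strands, while RPA covers single-stranded DNA. Many of these genes are known E2F targets whose transcripts peak around the start of S phase, and dividing cells such as HEK293T express them strongly.

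Both arrays had the same trimmed mean of about 1000, and the signal background, set at the 90th percentile over 107 probe sets of olfactory receptors, was 143 (GFP control) and 179 (IRX1::GFP). The probe set of IRX1 read 33.1 and 57, both under background, and does not check the labels, since whether it lies in the transfected cDNA is not known. Of 7 markers fixed for HEK293T, 6 were above background in the GFP control and all 7 with IRX1::GFP, with summed signals of 57360 and 52377. Their members differed between the arrays, as LIN28B read 8740 and 1436, NEFL 3205 and 8765, KRT18 2046 and 4480 and PAX2 134 and 278. Of 9 markers of other cell types, 6 and 3 were above background and the summed signals were 1643 and 1871, with CD14 at 327 and 856. PTPRC, CDH5 and PDGFRB were under background on both arrays, and none was listed at 0. The ratio of the 3-prime to the 5-prime control probe set of ACTB, which reads RNA quality, changed from 3.23 to 1.64 with IRX1::GFP. That of GAPDH changed from 1.22 to 1.01. Their part in the ratios below was not tested.

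The replication genes were bright on both arrays, and 48 of the 49 lay within 2-fold (98%, against 84.3% of all genes past the filter). All 49 passed the filter, a mean of both signals of 183 or more (the 50th percentile of probe sets), and all had both signals above background. At least 2-fold higher with IRX1::GFP was 1 gene, GINS4 (2.04%), and no gene was at least 2-fold lower. Among all 12193 genes that passed, the higher share was 10.4% and the lower share 5.34%. The median log2 ratio of the 49 genes was -0.08, with 24 above 0 and 25 below 0, and that of all genes past the filter was 0.07. Their ratios ran from -0.95 (PRIM2) to 1.12 (GINS4), with the middle part of the list, from the 25th to the 75th percentile, at -0.36 to 0.32 against -0.36 to 0.52 for all genes. The SD over genes was 0.52 for the replication genes and 0.79 for all.

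The share of genes past 2-fold differed with brightness on these arrays, and the replication genes had a median mean signal of 7671 against 1519 for all genes past the filter. All 49 also passed a filter at the 75th percentile, where the shares among 7678 genes were 6.68% higher and 5.41% lower. The ratios of those 7678 genes had an SD of 0.71 and a median absolute value of 0.40, against 0.52 and 0.36 for the 49 genes. Of the 478 genes with a mean signal of 20000 or more, 2.72% passed 2-fold upwards and 0.837% downwards, and 10 of the replication genes were among them, ORC6, CDT1, GMNN, MCM2, MCM6, PCNA, RPA3, FEN1, RRM1 and TYMS. The ratios of these 10 ran from -0.52 to 0.69. Whether signals in this range are compressed was not tested. At a limit of 1.5-fold, chosen after the values were seen, 7 of the 49 genes were higher and 7 lower (14.3% each), while the shares of all 12193 genes were 22.6% and 15.2%, and those past the 75th percentile 16.6% and 16.9%.

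**Figure D1:**
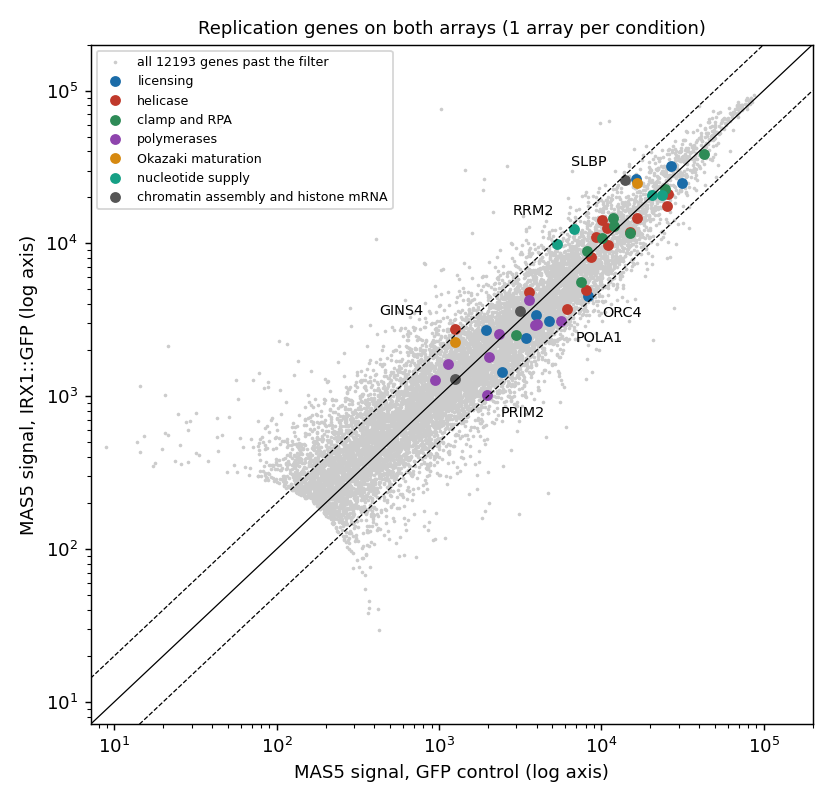
Each point is a gene, with its MAS5 signal in the GFP control (x, log axis) and with IRX1::GFP (y, log axis), 1 array per condition. Grey points are all 12193 genes past the filter, coloured points the 49 replication genes by role, the solid line equal signals and the dashed lines 2-fold. GINS4 lies just above the upper dashed line, PRIM2 just inside the lower one, and the other replication genes between them.

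In place of replicates, different probe sets of a gene show the noise inside this pair of arrays. Over 5930 genes with more than 1 probe set past the filter the SD of the log2 ratio between probe sets of one gene was 0.49, and over the 26 replication genes with more than 1 it was 0.38. It leaves out differences between cultures and holds differences between isoforms. Of the 49 genes, 30 had a ratio within 0.49 of 0, 10 a higher one (20.4%) and 9 a lower one (18.4%). Among all genes past the filter 26.6% were higher and 19.2% lower by this limit, and past the 75th percentile 20.3% and 21.4%, so that passing it does not set a gene apart. The 49 genes had 91 probe sets, of which 88 passed the filter, and 23 genes had a single one. Of the 26 genes with more, 11 had all their ratios above 0, 7 all below 0 and 8 on both sides.

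**Figure D2:**
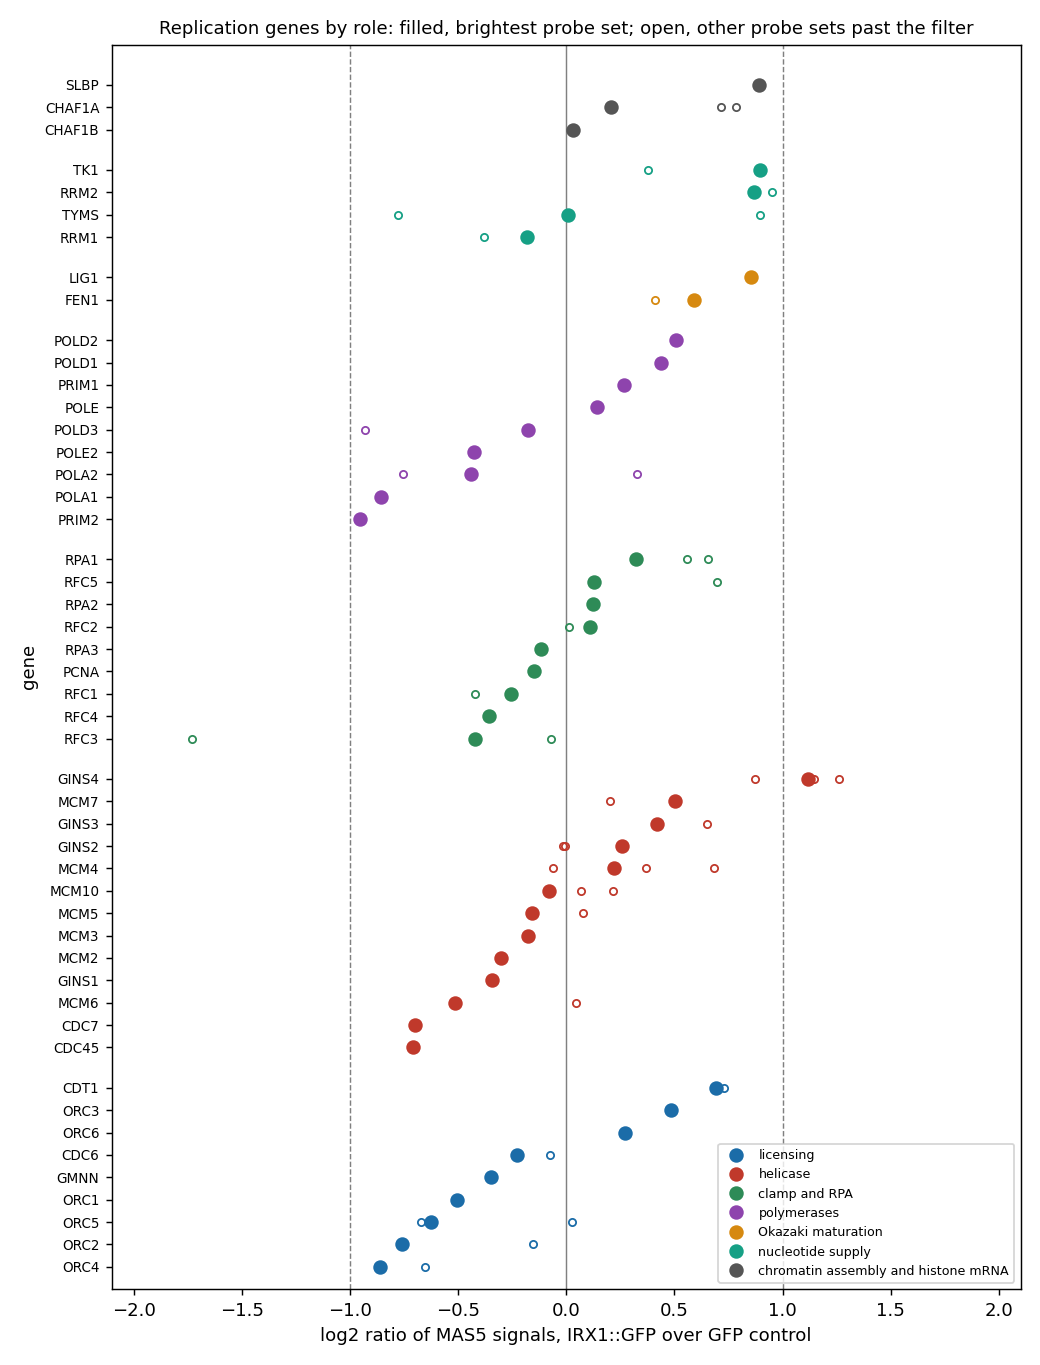
Log2 ratios of MAS5 signals, IRX1::GFP over GFP control (x), of the 49 replication genes (y), grouped by role and ordered by ratio, 1 array per condition. Filled points are the brightest probe set of a gene, open points its other probe sets past the filter and dashed lines 2-fold. The filled points of the origin recognition genes and the polymerase alpha-primase genes lie mostly to the left of 0, and those of FEN1, LIG1, TK1, RRM2 and SLBP to the right.

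The promoters show a sequence feature that the choice of genes did not use. In the RefSeq promoter table (GRCh38.p14), 43 of the 49 genes had 55 start sites, each with 300 bases, 250 before and 50 after the start. MCM4, MCM5, GINS4, RPA2, RPA3 and POLD3 had no entry. The letters TTTNNCGC, an E2F-type motif, were searched on both strands, where its forward and reverse forms may overlap. They were present at 23 of 55 start sites of the replication genes (41.8%), at 2418 of all 35116 start sites (6.89%) and at 1422 of 14477 start sites of genes past the filter (9.82%). The median GC content was 65% both at the replication genes and at the genes past the filter. CCAAT, the letters of the NF-Y box, was present at 54.5% of the replication gene starts, 34.6% of all and 35% of those past the filter. CACGTG, an E-box, was present at 12.7%, 7.26% and 9.55%. A match is a description of the letters and not a site of binding. The 250 bases before the start of 3 genes that read lower with IRX1::GFP (MCM6, CDC7, POLA1) and of 3 that read higher (LIG1, CDT1, MCM7) are shown, 5′ to 3′ on the gene's strand, because the motif, in capitals, is present in both. The start shown is 1 of 2 for CDC7 and 1 of 3 for MCM7, and the other starts of these genes had no match.
MCM6, chr2:135876444-135876693, minus strand: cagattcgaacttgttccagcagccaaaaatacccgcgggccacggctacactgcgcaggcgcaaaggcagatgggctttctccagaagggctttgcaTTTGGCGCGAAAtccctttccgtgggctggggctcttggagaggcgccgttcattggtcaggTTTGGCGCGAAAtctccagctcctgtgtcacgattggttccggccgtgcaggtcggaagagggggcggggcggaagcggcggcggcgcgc
CDC7, chr1:91500862-91501111, plus strand: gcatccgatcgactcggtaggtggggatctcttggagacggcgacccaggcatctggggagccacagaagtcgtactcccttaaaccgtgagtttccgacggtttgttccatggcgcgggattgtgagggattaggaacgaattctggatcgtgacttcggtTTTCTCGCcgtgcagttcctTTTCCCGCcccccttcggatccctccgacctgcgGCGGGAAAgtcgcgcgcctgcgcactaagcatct
POLA1, chrX:24693668-24693917, plus strand: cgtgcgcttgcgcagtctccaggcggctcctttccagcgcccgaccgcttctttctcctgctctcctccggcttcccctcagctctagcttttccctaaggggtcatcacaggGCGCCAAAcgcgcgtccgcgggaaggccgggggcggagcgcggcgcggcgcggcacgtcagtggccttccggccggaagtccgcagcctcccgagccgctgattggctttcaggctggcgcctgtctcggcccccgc
LIG1, chr19:48170345-48170594, minus strand: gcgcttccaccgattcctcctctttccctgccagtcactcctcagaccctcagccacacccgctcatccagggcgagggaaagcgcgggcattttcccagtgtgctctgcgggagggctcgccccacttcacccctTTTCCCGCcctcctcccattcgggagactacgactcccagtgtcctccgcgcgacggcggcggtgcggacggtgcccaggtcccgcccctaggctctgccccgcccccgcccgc
CDT1, chr16:88803539-88803788, plus strand: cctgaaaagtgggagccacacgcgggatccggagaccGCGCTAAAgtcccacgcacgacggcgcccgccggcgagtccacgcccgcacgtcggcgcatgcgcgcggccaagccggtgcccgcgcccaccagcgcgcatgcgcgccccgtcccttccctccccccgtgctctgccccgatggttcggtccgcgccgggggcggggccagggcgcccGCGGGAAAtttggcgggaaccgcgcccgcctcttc
MCM7, chr7:100101398-100101647, minus strand: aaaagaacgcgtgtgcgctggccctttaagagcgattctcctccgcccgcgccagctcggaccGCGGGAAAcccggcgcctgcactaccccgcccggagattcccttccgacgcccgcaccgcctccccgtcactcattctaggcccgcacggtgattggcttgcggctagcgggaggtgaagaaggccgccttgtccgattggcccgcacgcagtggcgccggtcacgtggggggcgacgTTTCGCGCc
MCM6 had 4 matches in this stretch, in overlapping forward and reverse forms, CDC7 had 3, CDT1 and MCM7 had 2 and POLA1 and LIG1 had 1. Of the 23 genes with the motif at any start, 10 had a log2 ratio above 0 and 13 below 0, with a median of -0.18. The 20 genes without it had a median of 0.07. RRM2, TK1 and SLBP, which are among the 5 highest ratios reported below, had no match in these windows. Of the 9 genes lower by more than 0.49 on the log2 scale, MCM6, CDC7 and POLA1 had a match. The others, PRIM2 with the lowest ratio, ORC4, ORC2, CDC45, ORC5 and ORC1, had none.

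Of the 9 origin licensing genes, none was 2-fold different, 3 had a ratio above 0 and 6 below, and their median was -0.35. The origin recognition complex marks the sites where the MCM ring is loaded. ORC4 had signals of 8265 (GFP control) and 4552 (IRX1::GFP), a log2 ratio of -0.86, and its second probe set read 769 and 489. ORC2 read 2459 and 1451 (-0.76) on one probe set and 1637 and 1470 (-0.16) on the other. ORC5 read 4749 and 3083 (-0.62), with a second probe set at 1673 and 1704 and a dimmer one at 505 and 316. The 3 brightest probe sets were thus lower by more than 0.49, while 1 of the others of ORC2 and 1 of ORC5 differed little. ORC1, the subunit whose level changes most over the cell cycle, read 3411 and 2406 (-0.50). ORC3 and ORC6 went the other way, ORC3 at 1936 and 2712 (0.49) and ORC6 at 26698 and 32179 (0.27). The subunits of this complex therefore spanned 1.35 on the log2 scale, from ORC4 to ORC3. For scale, the ratios of all genes past the 75th percentile had an SD of 0.71. Whether subunits of this complex or of those below lay further apart than other genes was not tested.

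CDT1, which brings the MCM ring to origins, read 16296 and 26348 on its brightest probe set and 1681 and 2789 on the other, ratios of 0.69 and 0.73. Its inhibitor geminin, GMNN, read 31434 and 24678 (-0.35), with a single probe set. CDC6, the ATPase that works with CDT1, read 3969 and 3388 (-0.23) and, on its second probe set, 3758 and 3571. CDT1 was thus higher on both of its probe sets by more than this SD of 0.49, and GMNN and CDC6 were within it. Both CDT1 probe sets carry a suffix for probes that other transcripts may share.

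Of the 13 genes of helicase assembly, 5 had a ratio above 0 and 8 below, with a median of -0.16. GINS4, a subunit of the GINS complex that ties the ring to CDC45, had signals of 1261 (GFP control) and 2734 (IRX1::GFP) and was 2.17-fold higher. Its other 3 probe sets read 585 and 1072, 440 and 1055 (2.39-fold), and 115 and 254 (at least 1.77-fold, as the GFP control signal was under background). The first of these had a ratio of 0.87. All 4 probe sets were thus higher, 2 of them by at least 2-fold. The dimmest had a mean of 185 against the filter of 183 and passed only through its IRX1::GFP signal. Its direction is therefore not a separate check. The other GINS genes were within 2-fold. GINS3 read 3597 and 4813 (0.42), GINS2 9263 and 11084 (0.26) and GINS1 15121 and 11915 (-0.34), so that GINS4 and GINS1, whose proteins belong to the same complex, lay 1.46 apart on the log2 scale.

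The 6 genes of the MCM2 to MCM7 ring, the motor of the helicase, were within 2-fold, with a median of -0.17. MCM6 read 25264 and 17674 (-0.52), although a dimmer probe set read 504 and 519. MCM7 read 10076 and 14277 (0.50), and its second probe set 10783 and 12394 (0.20). MCM2 read 25768 and 20928 (-0.30), MCM3 16570 and 14654 (-0.18), MCM5 10962 and 9835 (-0.16) and MCM4 10873 and 12658 (0.22). The second MCM5 probe set read 2559 and 2704 (0.08), and the other MCM4 probe sets past the filter had ratios of 0.37, -0.06 and 0.68. Of the brightest probe sets, those of MCM6 and MCM7 passed 0.49 in opposite directions. MCM10, which helps to activate the helicase, read 8675 and 8198 (-0.08), and its other probe sets were within 0.22 of 0.

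CDC45, which joins the ring and GINS in the active helicase, and CDC7, the kinase that starts it, had 1 probe set each. CDC45 read 6111 and 3745, 1.63-fold lower, and CDC7 8013 and 4936, 1.62-fold lower. Both ratios, -0.71 and -0.70, exceeded that SD of 0.49.

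The clamp, its loader and the single-strand binding genes were within 0.49 of 0 on their brightest probe sets. Of these 9 genes, 4 had a ratio above 0 and 5 below, the median was -0.12, and all lay between -0.42 and 0.32. PCNA, the sliding clamp, read 42911 and 38649 (-0.15). Of the clamp loader genes RFC3 read 7498 and 5593 (-0.42), RFC4 14912 and 11647 (-0.36), RFC1 3000 and 2512 (-0.26), RFC2 10060 and 10866 (0.11) and RFC5 8166 and 8917 (0.13). RFC3 held the one probe set of the 88 that was at least 2-fold lower. It read 843 and 254, a ratio of -1.73, while the other RFC3 probe sets read 7498 and 5593, and 2486 and 2371. The genes of RPA, whose trimer covers single strands, read 11724 and 14666 for RPA1 (0.32), 11932 and 12984 for RPA2 (0.12) and 24567 and 22630 for RPA3 (-0.12). Of the other RFC5 probe sets 1 was also close to 0, at 4387 and 4768, and 1 read 5450 and 8830 (0.70). The other RPA1 probe sets read 6178 and 9739, and 241 and 356, both higher.

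The brightest probe sets of the polymerase genes read in different directions within their complexes, by gaps that were not tested against other genes. Of 9 genes, 4 had a ratio above 0 and 5 below, with a median of -0.18. In polymerase alpha-primase, which lays the primer of each new strand, PRIM2 read 1962 and 1013, 1.94-fold lower and the lowest ratio of the 49 genes (-0.95). POLA1, the catalytic subunit, read 5645 and 3119, 1.81-fold lower (-0.86). POLA2 read 4029 and 2964 (-0.44), and its dimmer probe sets 271 and 161, and 178 and 223. PRIM1, the catalytic primase subunit, was the one subunit with a higher signal, 3573 and 4294 (0.27). PRIM1 and PRIM2 therefore lay 1.22 apart. PRIM2, POLA1 and PRIM1 had 1 probe set each.

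Polymerase delta, the main lagging-strand enzyme, was higher for its catalytic gene POLD1, at 949 and 1285 (0.44), and for POLD2, at 1138 and 1618 (0.51). POLD3 read 2035 and 1800 (-0.18), with a second probe set at 795 and 417 (-0.93). Polymerase epsilon, the main leading-strand enzyme, read 2327 and 2569 for POLE (0.14) and 3915 and 2912 for its second subunit POLE2 (-0.43). All were within 2-fold, and of the brightest probe sets POLD2 alone passed 0.49.

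The genes that process Okazaki fragments, the short pieces of the lagging strand, were both higher. LIG1, the ligase that seals them, read 1259 and 2275, 1.81-fold higher (0.85), and FEN1, the flap nuclease, 16531 and 24860 (0.59). The second FEN1 probe set read 8391 and 11167 (0.41).

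Nucleotide supply showed a split between the subunits of ribonucleotide reductase, the enzyme that makes deoxynucleotides. RRM2, the subunit that limits its activity over the cell cycle, read 6787 and 12403 on one probe set and 4818 and 9313 on the other, 1.83-fold and 1.93-fold higher. RRM1, the large subunit, read 23665 and 20856 (-0.18) and 6563 and 5045 (-0.38). Both RRM2 probe sets were thus higher and both RRM1 probe sets lower, at a distance of 1.05 between the brightest. TK1, the S-phase thymidine kinase, read 5365 and 9976, 1.86-fold higher (0.89), and 5504 and 7160 (0.38) on a second probe set of nearly the same brightness. The probe sets of TYMS, thymidylate synthase, went different ways. The brightest read 20624 and 20737 (0.01), another 2830 and 5258 (0.89) and the dimmest 462 and 269 (-0.78). The median of the 4 genes was 0.44.

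Of the genes that package new DNA, SLBP, which binds the stem-loop at the end of histone mRNAs, read 14003 and 25950, 1.85-fold higher (0.89) on its single probe set. CHAF1A, the large subunit of the histone chaperone CAF-1, read 3134 and 3618 (0.21). Of its other probe sets, 2 passed the filter, at 2071 and 3402 (0.72) and 1135 and 1958 (0.79). CHAF1B read 1262 and 1289 (0.03). The brightest CHAF1A probe set thus had the smallest of its 3 ratios, and the 3 genes had a median of 0.21.

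The members of the list with close relatives in the genome are less certain. RefSeq names pseudogenes after 11 of the 49 genes, 4 for PCNA, 3 each for RPA2 and RRM2, 2 each for RPA3 and TYMS and 1 each for ORC1, RFC3, RFC5, PRIM2, POLD2 and FEN1. Whether the probes also bind their transcripts is not known. In bulk RNA, fewer cells in S phase and less RNA per cell cannot be told apart.

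Other genes of replication, fixed as 5 lists without the 49, ranged from -1.56 (ETAA1) to 1.67 (RAD9A). All 76 genes passed the filter, 4 of them at least 2-fold higher and 4 lower (5.26% each). The ratio was above 0 for 27 and below for 49, and the median was -0.12. None of the 16 origin firing genes was 2-fold different (median -0.16). Among the 15 genes of fork protection and checkpoint signalling (median -0.43), RAD9A, part of a checkpoint clamp, read 2219 and 7039, 3.17-fold higher. ETAA1, an activator of the kinase ATR, read 1621 and 549, 2.95-fold lower.

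Among the 18 accessory genes of polymerases, clamp and loader (median -0.13), POLD4, the small subunit of polymerase delta, read 180 and 522, 2.90-fold higher. ATAD5, which unloads PCNA, read 3120 and 1109, 2.81-fold lower. REV3L, the catalytic subunit of the translesion polymerase zeta, read 6888 and 2376, 2.90-fold lower, although its other probe set past the filter had a ratio of 0.81. Among the 13 other genes of nucleotide supply (median 0.11), SHMT1, which provides one-carbon units, read 94.9 and 291, at least 2.03-fold higher as its GFP control signal was under background.

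The paralogues ASF1A and ASF1B, histone chaperones at the fork that hand histones to CAF-1, read in opposite directions. ASF1A read 4511 and 1918, 2.35-fold lower, with its second probe set at a ratio of -0.83. ASF1B, the form tied to dividing cells, read 3669 and 8539, 2.33-fold higher, on 1 probe set. The 14 genes of chromatin at the fork had a median of -0.10, with 1 gene higher and 1 lower.

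Of 17 genes of E2F, its DP partners and ubiquitin ligases of replication, none was at least 2-fold higher and 3 were lower, with a median of 0.05. Over all genes past the filter 10.4% were higher and 5.34% lower, and past the 75th percentile 6.68% and 5.41%. DTL, the subunit that brings CDT1 to the CUL4 ligase for degradation, read 28913 and 9921, 2.91-fold lower, and its other probe set gave -1.58. CUL4B, the scaffold of that ligase, read 6678 and 3315, 2.01-fold lower, and its other 3 probe sets were lower by at least 0.40 on the log2 scale. E2F3 read 7267 and 3514, 2.07-fold lower, with -0.74 on its second probe set. CUL4A, DDB1 and SKP2 of the same list had ratios of 0.12, 0.13 and 0.78 on their brightest probe sets. CDT1 itself was higher, as given above, on both of its probe sets. The arrays read mRNA and not protein, and a link between these genes was not tested.

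Mitotic genes were set beside the replication genes as a list of 33. Of these 1 was at least 2-fold higher (3.03%) and 2 lower (6.06%), with a median of -0.14 and an SD over genes of 0.64. CENPA, the centromere histone, read 926 and 2141. HMMR, a spindle protein, read 14297 and 4177, 3.42-fold lower, and KIF20B, a kinesin, 3257 and 1588. Within 2-fold were 98.0% of the 49 replication genes, 89.5% of the other replication genes, 90.9% of the mitotic genes, 84.3% of all genes past the filter and 87.9% of those past the 75th percentile. In the same order the median mean signals were 7671, 4303, 6678, 1519 and 3109. The part of brightness in these shares was not tested. With 1 array per condition these shares describe the pair of arrays, and differences between the lists were not tested.

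**Figure D3:**
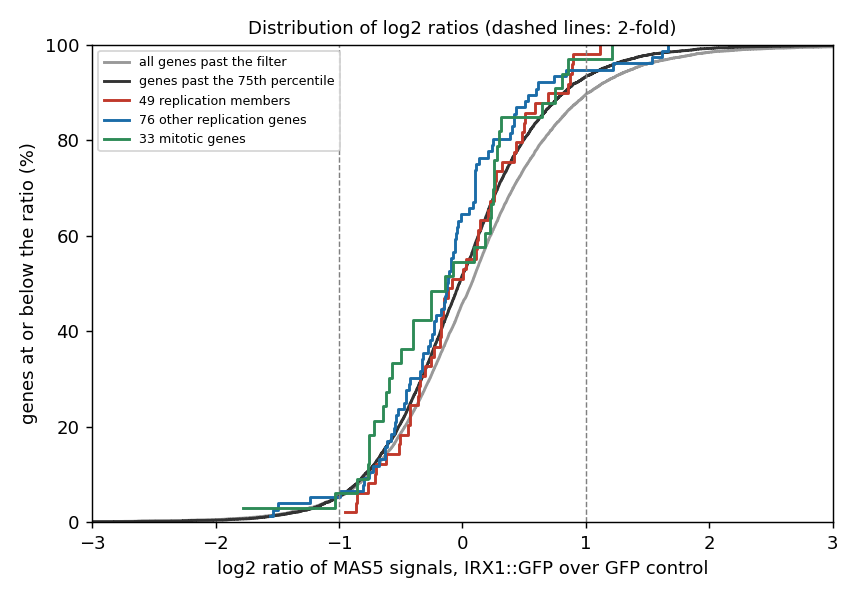
Share of genes (y, percent) with a log2 ratio of MAS5 signals, IRX1::GFP over GFP control, at or below the value on the x axis. Dashed lines mark 2-fold, and each condition had 1 array. The line of the 49 replication genes starts at -0.95 and ends at 1.12, just past the upper dashed line. The lines of the 76 other replication genes, the 33 mitotic genes and all genes past the filter reach beyond both dashed lines.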

How the data were processed

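RNA of GFP-sorted HEK293T cells was hybridised to 1 array per condition, while the legend for these arrays states n = 3. It was not settled if an array holds a pool or a single replicate. The deposited values are MAS5 signals (intensity, linear scale) that the authors scaled within each array. Its name is from the submitters' processing notes, its version not given in the sources used here. In its annotation, the platform has 1 gene symbol for 41097 of 54675 probe sets, several for 1801, which were left without a name, and none for 11777. By gene identifier, 41043 were found in the RefSeq gene table of GRCh38.p14 and took its symbols.

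A gene stands for its brightest probe set by the mean of both signals, which gave 19775 genes, 12193 of them at or above the 50th percentile of probe sets. The log2 ratio, IRX1::GFP over GFP control, was called at 2-fold, and a signal under background gave a bound. No test was made, since 1 array per condition gives no spread between replicates. All 49 genes are named, and of the other lists those 2-fold different, at most 4 a list. CUL4A, DDB1 and SKP2 are named besides. The genes and lists were chosen with earlier results of these data known. Some genes of these lists are not reported here, and protein sequences were not used here.

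Alternatives were median centring, quantile normalization, loess (span 0.3), a filter at the 75th percentile or none, signals raised to background, the mean over probe sets and leaving out probe sets whose suffix marks shared probes. The steps were tested on simulated data with true ratios larger than any of the replication genes had. That test does not cover ratios of the size they had. The analysis ran in Python 3.11.15 with pandas 2.3.3, numpy 2.4.6, statsmodels 0.14.6, scipy 1.17.1 and matplotlib 3.10.9.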

Additional observations from a re-analysis of the deposited data

How the results depend on the processing

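No paired analysis was possible because the samples hold 1 array of either condition, and none was left out for the same reason. Of the 8 alternatives, 3 (no filter, the 75th percentile, signals raised to background) cannot move the 49 genes, which all pass and are above background. Under the other 5 GINS4 was the 1 gene at least 2-fold higher, with ratios from 1.04 after median centring to 1.14 after loess, and its probe set was the same one without suffixes. The count of genes at least 2-fold lower was 0 except after median centring, where PRIM2 at -1.03 made it 1. At 1.5-fold, a limit added after the data were seen, 7 were higher and 7 lower. The median log2 ratio of the 49 genes, -0.08, was -0.16 after median centring and 0.031 as the mean over probe sets, so its sign is not settled. As the mean over probe sets, the median of the chromatin assembly and histone mRNA genes was 0.57. With probe sets without a suffix, which left 36 of the 49 genes, the median of the licensing genes was -0.62 and that of the helicase genes 0.028, on the other side of 0. There TK1 was 0.38. Of 379 single ratios, 197 were identical to the main ones, 147 of these fixed by those 3 settings. In all, 378 moved by under 0.49, the SD between a gene's probe sets, or not at all. Median centring shifts every ratio by -0.07, so it could not pass that limit either. GINS4, the 1 gene called 2-fold different, kept its sign. Genes with ratios near 0 did not all do so, among them TYMS and CHAF1B after median centring and MCM10 as the mean over probe sets. Medians were set against that SD divided by the square root of the number of genes. These alternatives leave out differences between cultures, which 1 array per condition cannot show.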
